A study of Mus musculus with 24 samples.

Results

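MHC class II molecules display peptides from engulfed material to CD4+ T cells. They are made mainly by professional antigen-presenting cells, namely dendritic cells, B cells and macrophages, while muscle fibres make little under resting conditions. H2-Aa and H2-Ab1 encode the α and β chains of the I-A molecule, and H2-Eb1 encodes the β chain of I-E. Cd74 encodes the invariant chain that guides class II molecules to endosomes. H2-DMa and H2-DMb1 encode the chains of H2-DM, which exchanges the invariant chain remnant for peptide. Ciita encodes the co-activator that switches class II genes on, and Cd86 encodes a co-stimulatory ligand on the surface of antigen-presenting cells.

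These 8 genes were followed in dystrophic and Cmah-deficient mouse muscle through every probe set of the array table whose annotation gives 1 symbol that is one of them. The rule found 16 probe sets of 34945 with 1 symbol, and these cover 7 of the 8 genes. H2-DMb1 appears on 2 probe sets that it shares with H2-DMb2, so it has no value of its own here. H2-Aa has 4 probe sets, H2-Ab1 and Ciita have 3 each, H2-DMa and Cd86 have 2 each, and H2-Eb1 and Cd74 have 1 each.

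Gastrocnemius (the large calf muscle) and heart came from 12 male mice, 3 per genotype and all 2 months old, and each tissue sample was hybridised to its own array. Cmah KO mdx mice lack both dystrophin and Cmah, the enzyme that makes the sialic acid Neu5Gc, and are labelled C57BL6/10J. The mdx mice lack dystrophin alone, have the same strain label and serve as a model of Duchenne muscular dystrophy. Cmah KO mice carry a human-like mutation of Cmah, and WT mice carry neither defect, both with the strain label C57BL/6J. Every comparison across dystrophin loss therefore also crosses the strain labels, and dystrophin loss and strain cannot be told apart. In whole tissue, more cells of a type and more RNA per cell cannot be told apart either.

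All values are log2 of the deposited intensity, and the number of arrays limits their precision. Dmd, the dystrophin gene, averaged 8.18 and 8.37 in Cmah KO mdx and mdx gastrocnemius, against 10.15 and 10.16 in Cmah KO and WT. In heart its means were 8.52 and 8.86, against 9.25 and 9.96. Cmah averaged 7.16, 7.21, 6.36 and 7.38 in Cmah KO mdx, mdx, Cmah KO and WT gastrocnemius. In heart its means were 6.95, 6.78, 6.50 and 6.66 in the same order. Where its probes lie relative to the mutation was not analysed here, so this checks nothing. Nnt, a mitochondrial gene disrupted in C57BL/6J, had group means from 12.06 to 12.33 in gastrocnemius. Heart arrays Cmah KO mdx replicate 2 and Cmah KO replicate 3 stood apart in the difference between the 3′ and 5′ Gapdh controls (4.43 and 4.29, against 0.44 to 1.60 in the other 10 heart arrays). In gastrocnemius 4 animals, 1 of each genotype, had high values of the bioB control. These were WT replicate 3 and replicate 1 of the other genotypes, with bioB at 11.39 to 11.80 against 9.62 to 10.78 in the other 8 arrays. The same 4 animals also stood higher in the Gapdh difference, at 0.76 to 1.02 against 0.36 to 0.71 in gastrocnemius. In heart they had 0.98 to 1.60, against 0.44 to 0.54 in the 6 other hearts that do not deviate. The hearts of the same 4 animals had 10.90 to 11.32, against 9.61 to 10.35 in 6 other hearts, but the hearts that deviate in Gapdh were the highest, at 11.63 in Cmah KO mdx replicate 2 and 13.03 in Cmah KO replicate 3. Gastrocnemius arrays WT replicate 1 and Cmah KO replicate 3 stood apart in B and T cell markers, as described below with the values they touch.

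Class II promoters are known for an X box, bound by the RFX complex, and a Y box, a CCAAT motif bound by NF-Y, on which CIITA assembles. A window from 250 bases before to 50 bases after the gene start was taken from RefSeq for GRCm38.p6. It was held for 4 of the 8 members, all on chromosome 17 (H2-Aa, H2-Eb1, H2-DMa and H2-DMb1). The letters searched, chosen after the sequences had been seen, were AAC, 2 or 3 bases of any kind and TGANG, followed on the same strand after 10 to 40 bases by ATTGG, the reverse complement of CCAAT. Both strands were searched. H2-Aa, H2-Eb1 and H2-DMb1 held the pair, with 21, 19 and 20 bases between its parts, and neither of the H2-DMa windows did. Among all 32851 mouse windows, 0.271% held the pair, 5.77% held the first motif and 37.4% held ATTGG. Since the letters were chosen on sequences already seen, these shares give no test of the members. The whole windows of H2-Aa (GRCm38.p6 chr17:34287774-34288073, minus strand) and H2-Eb1 (chr17:34305617-34305916, plus strand) are shown as examples of a member window that holds the pair, 1 on each strand, with the matched letters in capitals.
H2-Aa window: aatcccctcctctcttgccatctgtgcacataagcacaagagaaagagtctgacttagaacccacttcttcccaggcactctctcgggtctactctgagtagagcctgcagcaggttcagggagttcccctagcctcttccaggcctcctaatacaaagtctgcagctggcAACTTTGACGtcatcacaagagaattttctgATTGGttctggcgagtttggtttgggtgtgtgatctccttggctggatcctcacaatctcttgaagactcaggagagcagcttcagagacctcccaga
H2-Eb1 window: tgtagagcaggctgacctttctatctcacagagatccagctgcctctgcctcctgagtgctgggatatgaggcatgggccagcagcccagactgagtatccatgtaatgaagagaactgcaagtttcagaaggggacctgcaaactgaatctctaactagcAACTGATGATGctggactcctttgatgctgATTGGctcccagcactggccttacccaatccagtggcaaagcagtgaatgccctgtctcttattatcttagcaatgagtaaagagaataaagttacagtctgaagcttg

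Of 17 other genes of the class II pathway (peptide loading, co-stimulation and promoter-binding factors), 15 had a window and 2 held the pair. These were H2-DMb2, a second β chain of H2-DM, and H2-Ob, the β chain of H2-O, which restrains H2-DM. The stretches around the pair are set below each other so that the shared letters can be compared.
H2-Aa (chr17:34287863-34287908, minus): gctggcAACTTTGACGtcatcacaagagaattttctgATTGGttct
H2-Eb1 (chr17:34305772-34305816, plus): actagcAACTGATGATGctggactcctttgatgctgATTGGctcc
H2-DMb1 (chr17:34153093-34153138, plus): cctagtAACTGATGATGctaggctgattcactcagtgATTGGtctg
H2-DMb2 (chr17:34145122-34145167, plus): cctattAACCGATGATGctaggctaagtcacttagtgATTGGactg
H2-Ob (chr17:34238814-34238856, plus): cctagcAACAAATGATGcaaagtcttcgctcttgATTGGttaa
A match describes these letters and is not a measured binding site.

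In gastrocnemius, class II genes read higher in most dystrophin-deficient arrays than in most dystrophin-positive ones, and WT replicate 1 did not follow. It was not the only exception, since without it the groups were apart at 7 of 14 probe sets tested and overlapped at the others. At the brightest probe set of each gene, the I-A, I-E, H2-DM and invariant chain genes and Cd86 were higher over both genotypes without dystrophin. Their average differences there were 0.68 to 1.32 log2 units (6 arrays against 6). No member passed the test, which was limma's moderated test with the Benjamini-Hochberg adjusted p below 0.05 over all 29518 probe sets tested in this muscle.

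H2-DMa had the largest difference among the brightest probe sets of the members. Its probe set 1422527_at read 9.01, 8.97 and 9.07 in Cmah KO mdx replicates 1, 2 and 3 and 8.46, 8.92 and 8.75 in mdx, against 6.66, 8.03 and 7.79 in Cmah KO and 9.03, 7.55 and 6.19 in WT. The 6 dystrophin-deficient arrays lay close together, and WT replicate 1 was the only dystrophin-positive array within their range. The pooled difference was 1.32 ± 0.41 (SE; limma adjusted p = 0.222). The second probe set of H2-DMa differed by 1.01 ± 0.33 (adjusted p = 0.249).

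H2-Ab1, the I-A β chain, was read at 1450648_s_at as 11.38, 11.07 and 11.68 in Cmah KO mdx and 11.22, 11.46 and 11.03 in mdx, against 9.81, 10.68 and 10.41 in Cmah KO and 11.34, 9.91 and 9.69 in WT. Again every dystrophin-positive array but WT replicate 1 lay below every dystrophin-deficient one. Pooled, H2-Ab1 differed by 1.00 ± 0.30 (limma adjusted p = 0.185). Its other probe sets differed by 0.97 ± 0.58 and 1.22 ± 0.67. At both, the groups overlapped also without WT replicate 1.

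H2-Aa, the I-A α chain, was read at 1435290_x_at as 10.75, 10.94 and 10.83 in Cmah KO mdx and 10.92, 10.85 and 11.02 in mdx, against 9.98, 9.94 and 10.49 in Cmah KO and 11.30, 9.53 and 10.02 in WT. WT replicate 1 was the highest of the 12 arrays, and the other 5 dystrophin-positive arrays were the lowest. Over both backgrounds H2-Aa differed by 0.68 ± 0.28 (limma adjusted p = 0.410). Its probe set 1452431_s_at had a larger but more scattered difference of 1.09 ± 0.68. The SD of that probe set within a genotype was 0.90 to 1.86, against 0.09 to 0.92 at 1435290_x_at. At 1438858_x_at H2-Aa read 9.37, 9.11 and 8.93 in Cmah KO mdx and 9.76, 8.90 and 9.23 in mdx. Cmah KO there read 8.79, 8.48 and 8.76 and WT 9.09, 8.22 and 9.06, so WT replicate 3 also lay within the dystrophin-deficient range. Without WT replicate 1 the pooled difference at 1438858_x_at was 0.56 ± 0.24 (limma adjusted p = 0.401).

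H2-Eb1, the I-E β chain, read 10.38, 11.36 and 11.39 in Cmah KO mdx and 10.59, 11.03 and 11.22 in mdx, against 8.68, 10.23 and 10.34 in Cmah KO and 11.40, 9.47 and 8.74 in WT. The array of the high bioB animal was the lowest of its group in all 4 genotypes. The pooled difference was 1.18 ± 0.45 (limma adjusted p = 0.360).

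Cd74, the invariant chain, showed the same split inside the groups. It read 11.17, 12.39 and 12.53 in Cmah KO mdx and 11.59, 12.38 and 12.37 in mdx, against 9.93, 11.47 and 11.62 in Cmah KO and 12.53, 10.88 and 10.09 in WT. Replicate 1 of both Cmah KO mdx and mdx lay below Cmah KO replicate 3, so the groups with and without dystrophin overlapped also outside WT replicate 1. Cd74 differed by 0.98 ± 0.45 (limma adjusted p = 0.497).

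Cd86, the co-stimulatory ligand, read 5.17, 6.47 and 5.61 in Cmah KO mdx and 5.67, 5.93 and 5.24 in mdx, against 4.25, 4.19 and 5.11 in Cmah KO and 5.83, 3.39 and 4.52 in WT. Its signal was low, since 2 of 3 arrays in both Cmah KO and WT lay below 4.66, the level used to filter low values (40th percentile), while no dystrophin-deficient array did. The pooled difference was 1.13 ± 0.39 (limma adjusted p = 0.289), and 1.28 ± 0.56 at its other probe set.

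Ciita, the class II co-activator, had no such separation. Its brightest probe set read 4.66, 6.16 and 6.64 in Cmah KO mdx and 4.07, 5.86 and 5.66 in mdx, against 3.83, 5.13 and 6.39 in Cmah KO and 7.87, 5.10 and 3.16 in WT. The highest and the lowest of the 12 values were both in WT. The pooled difference was 0.26 ± 0.74 (limma adjusted p = 0.984), and it was -0.10 ± 0.43 at 1447075_at. The interval is wide, so a difference as large as that of H2-Ab1 could not be told from none at this spread.

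**Figure D1:**
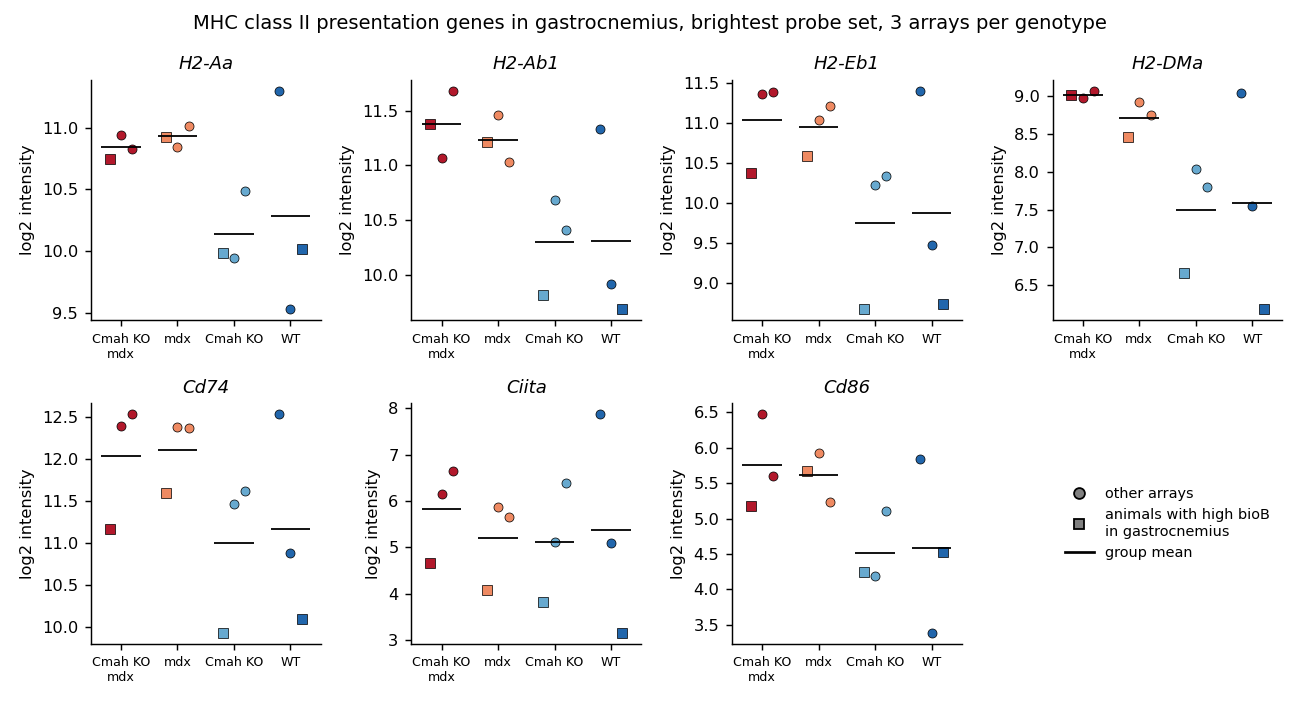
Log2 intensity of 7 class II presentation genes in gastrocnemius at the brightest probe set, for Cmah KO mdx, mdx, Cmah KO and WT (1 point per array, 3 per genotype; lines are group means; squares are the animals with high bioB; each panel has its own axis). WT replicate 1 is the top WT point in every panel, at 11.40 for H2-Eb1, where the other WT arrays read 9.47 and 8.74.

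Counted over probe sets, 14 of the 16 passed the filter on low values in gastrocnemius. The others, 1443783_x_at of H2-Aa and 1421210_at of Ciita, had group means of 2.86 to 3.60 and 4.01 to 4.48. In the pooled comparison of dystrophin-deficient with dystrophin-positive arrays, 13 of 14 were higher with a median of 1.01, against a median of -0.01 and 48.8% higher over all probe sets tested. The test called 0 of 14, and 0.857% of all probe sets. At an unadjusted p below 0.05 there were 7 of 14 higher, against 6.82% of all, and with the groups not overlapping 0 of 14, against 1.20%.

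With Cmah intact, mdx against WT gave 12 of 14 higher, a median of 0.95 (0.01 over all) and 0 called (0.0169% of all). The only one with an unadjusted p below 0.05 was H2-Ab1 at 0.92 ± 0.42 (limma adjusted p = 1.00). No probe set separated the groups, against 3.54% of all, since WT replicate 1 lay within or above the mdx range. Without Cmah, the comparison of Cmah KO mdx with Cmah KO gave 14 of 14 higher, a median of 1.10 (-0.02 over all) and 0 called (0.112% of all). The groups did not overlap at 8 of 14, against 7.27% of all. These 8 were H2-Aa and Cd86 with 2 probe sets each, both of H2-DMa, 1 of H2-Ab1 and that of H2-Eb1. Among them H2-DMa differed by 1.52 ± 0.59 (limma adjusted p = 0.517), H2-Eb1 by 1.29 ± 0.64 (0.705) and Cd86 by 1.24 ± 0.56 (0.636).

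Differences with Cmah loss were small in gastrocnemius, and none passed. In Cmah KO mdx against mdx the 14 differences ran from -0.17 to 0.62 with a median of 0.12 (0.03 over all), and in Cmah KO against WT from -0.65 to 0.05 with a median of -0.10 (0.04 over all). The test called 0 of 14 in both, against 0.00339% and 0% of all probe sets, and none had an unadjusted p below 0.05. The groups did not overlap at 2 of 14 in the first, both probe sets of H2-DMa and both higher in Cmah KO mdx, against 2.28% of all higher and 1.54% lower. Averaged over both backgrounds, Cmah loss gave a median of 0.02, with 0 of 14 called (0.00339% of all). The interaction, which asks whether dystrophin loss acts differently with and without Cmah, had a median of 0.19 with 0 of 14 called (0% of all; none at an unadjusted p below 0.05). The SE of the interaction was wide, so these values do not show that the responses were alike.

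B and T cell markers read far higher on the WT replicate 1 array than on most other gastrocnemius arrays. Its 9 B cell markers averaged 8.58 and its 9 T cell markers 7.75. Cmah KO replicate 3 was next at 6.70 and 6.20, and the other 10 arrays lay between 4.51 and 5.28 for B cells and between 4.45 and 4.99 for T cells. Of the 9 B cell markers, 1 lay below the filter level of 4.66 on WT replicate 1 and on Cmah KO replicate 3, and 5 to 7 did on the other arrays. B cells express class II genes constitutively. The heart of the same WT animal, which is WT replicate 3 there, had 4.57 for B cells. The part of these cells in the class II values was not tested.

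Without WT replicate 1, an omission chosen after its values were seen, the pooled median of the members was 1.35 and 4 of 14 passed, against 1.01% of all probe sets called higher. They were H2-Ab1 at 1.26 ± 0.23 (limma adjusted p = 0.0315), H2-DMa at 1.68 ± 0.32 (0.0356) and at its second probe set at 1.29 ± 0.26 (0.0468), and Cd86 at 1449858_at, by 1.85 ± 0.34 (0.0311). The groups then did not overlap at 7 of 14, against 2.23% of all. Leaving out Cmah KO replicate 3 as well left 1 of 14 called (0.474% of all), again Cd86 at 1449858_at (2.01 ± 0.34, adjusted p = 0.0392), with 10 arrays in the fit. Both omitted arrays are dystrophin-positive and high in class II genes, so leaving them out raises the differences by construction.

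The size of the difference varied between the 4 animals with high bioB and the rest, among which is WT replicate 1. Within those 4 animals the pooled difference was 2.31 for H2-DMa, 1.77 for H2-Eb1, 1.55 for H2-Ab1, 1.37 for Cd74, 0.87 for Ciita, 0.84 for H2-Aa and 1.04 for Cd86. Within the other 8 it was 0.82, 0.89, 0.72, 0.79, -0.041, 0.59 and 1.18 for the same genes in that order, so Cd86 ran the other way. Without WT replicate 1 the other 7 gave 1.19, 1.37, 1.08, 1.20, 0.65, 1.04 and 1.79, and H2-Aa then ran the other way as well. With this split as a covariate, 11 of 14 passed without WT replicate 1 (3.59% of all called higher) and 12 of 14 without both arrays (2.15%), whereas with all 12 arrays and the covariate 0 of 14 passed. The split was found in the arrays themselves, which lowers the residual spread and can make such counts too high.

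**Figure D2:**
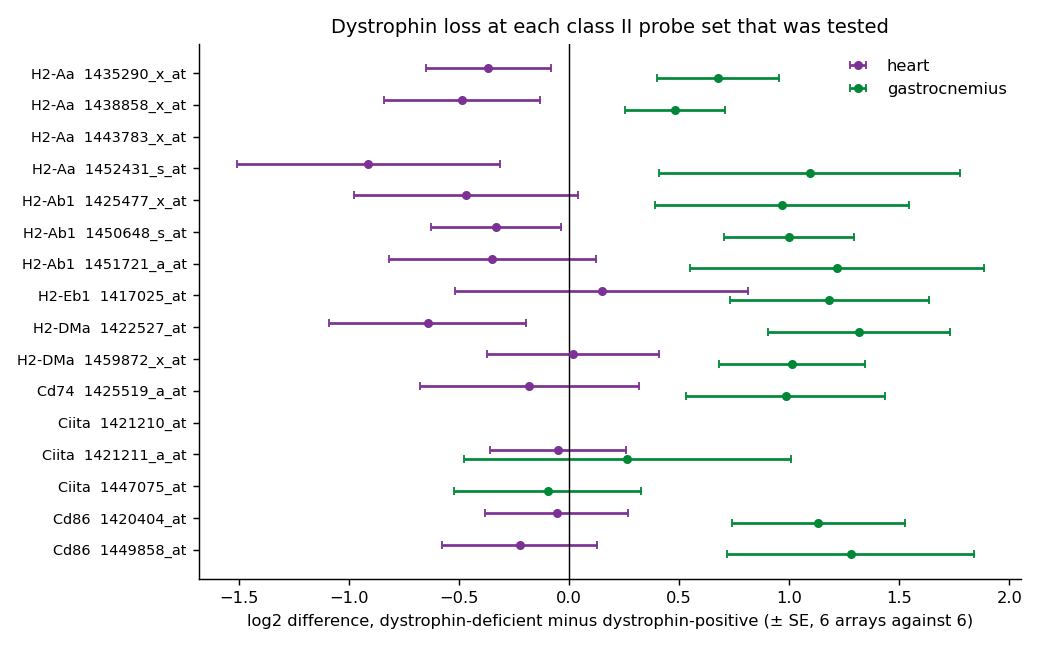
Log2 difference between dystrophin-deficient and dystrophin-positive arrays at each class II probe set, in heart and in gastrocnemius (points are limma estimates, bars are SE, 6 arrays against 6; probe sets below the filter have no point). In gastrocnemius 13 of 14 points lie above 0, and in heart 11 of 13 lie below.

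Genes known from other steps of presentation differed less uniformly. Ctss encodes cathepsin S, the protease that trims the invariant chain, and it rose by 1.93 ± 0.34 in dystrophin-deficient gastrocnemius (limma adjusted p = 0.0276). It was the only one of 17 other class II pathway genes to pass. Ifi30, a lysosomal thiol reductase, differed by 1.33 ± 0.36 (adjusted p = 0.143) and Lgmn, an asparaginyl endopeptidase, by 1.88 ± 0.82 (0.460). H2-Eb2 differed by -0.84 ± 0.44 (0.599). Over the 17, 9 were higher and 8 lower with a median of 0.00028, against a median of -0.01 over all probe sets.

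The 13 measured class I pathway genes were all higher, with a median of 0.26 and none called. Nlrc5, the class I counterpart of Ciita, differed by 0.55 ± 0.32 (limma adjusted p = 0.675) and Psmb8, an immunoproteasome subunit, by 0.71 ± 0.43 (0.694). Of 11 genes of the interferon gamma axis, the main inducer of Ciita in non-professional cells, 8 were higher with a median of 0.49 and none passed. Cxcl10 differed by 2.19 ± 0.57 (0.123) and Icam1 by 0.87 ± 0.31 (0.313).

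Macrophage markers moved with the members in gastrocnemius. All 18 tested were higher in dystrophin-deficient arrays with a median of 1.54, and 3 passed: Fcer1g (1.81 ± 0.34, limma adjusted p = 0.0370), Tyrobp (1.85 ± 0.36, 0.0395) and Fcgr1 (2.73 ± 0.56, 0.0471). The mean of the list was 8.68 to 10.36 in Cmah KO mdx and 9.06 to 9.83 in mdx, against 7.76 to 8.15 in Cmah KO and 7.58 to 8.78 in WT. The top of the WT range was again replicate 1. Among dendritic cell markers Itgax, which activated macrophages also carry, rose by 2.71 ± 0.44 (adjusted p = 0.0194), and of the 8 tested 4 were higher with a median of -0.01. B cell markers had a median of -0.01 over 4 tested, with 2 higher. T cell markers were lower at 7 of 7 with a median of -0.85, and Cd28 passed (fell by 1.54 ± 0.24, adjusted p = 0.0165). The 10 skeletal muscle markers had a median of 0.02 and the 8 endothelial markers one of 0.15, with none called. Of 9 cardiac muscle markers, 4 were higher, and Myl4, also an embryonic skeletal light chain, rose by 2.46 ± 0.29 (adjusted p = 0.00474). The part of macrophage content in the class II values was not tested.

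**Figure D3:**
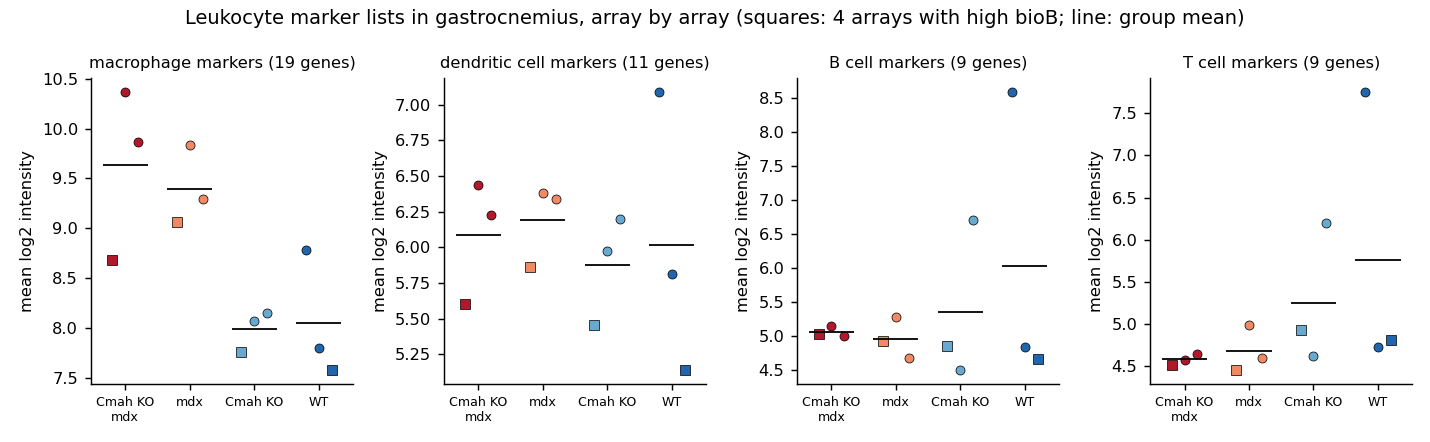
Mean log2 intensity of macrophage, dendritic cell, B cell and T cell marker lists in gastrocnemius, for Cmah KO mdx, mdx, Cmah KO and WT (1 point per array, lines are group means, squares are the animals with high bioB, each panel has its own axis). Macrophage markers are lower in Cmah KO (7.76 to 8.15) than in all 6 dystrophin-deficient arrays, while the B and T cell panels are set by WT replicate 1 (8.58 and 7.75) and Cmah KO replicate 3 (6.70 and 6.20).

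In heart, no rise of class II genes with dystrophin loss was seen. Errors were wide at some members. At H2-Eb1 (0.15 ± 0.66, SE) a difference as large as in gastrocnemius could not be told from none. In the pooled comparison 11 of 13 tested probe sets were lower with a median of -0.33, against 0.11 over all 29421 tested. None was called (0% of all), and none of the 13 had an unadjusted p below 0.05. The other 3 of the 16 probe sets were below the filter here, namely 1443783_x_at of H2-Aa and 1421210_at and 1447075_at of Ciita, whose group means lay between 2.64 and 4.76.

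H2-Ab1 in heart read 9.93, 9.48 and 9.98 in Cmah KO mdx and 8.81, 9.99 and 9.56 in mdx, against 10.06, 9.98 and 9.89 in Cmah KO and 9.66, 10.30 and 9.86 in WT. The groups overlapped, and the pooled difference was -0.33 ± 0.30 (limma adjusted p = 1.00). H2-DMa read 6.16, 4.63 and 7.52 in Cmah KO mdx and 6.54, 6.38 and 6.95 in mdx, against 6.64, 7.24 and 6.89 in Cmah KO and 7.34, 6.40 and 7.54 in WT. Its lowest value was that of Cmah KO mdx replicate 2, which deviates in Gapdh, and the pooled difference was -0.64 ± 0.45.

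H2-Eb1 in heart read 8.91, 8.71 and 10.40 in Cmah KO mdx and 9.80, 9.38 and 9.96 in mdx, against 9.57, 10.44 and 5.85 in Cmah KO and 10.19, 9.72 and 10.49 in WT. The 5.85 belonged to Cmah KO replicate 3, the other array that deviates in Gapdh. The pooled difference was 0.15 ± 0.66 with all 12 arrays and -0.39 without both deviating arrays. Cd74 had its lowest heart values on the same arrays, at 8.91 in Cmah KO replicate 3 and 9.56 in Cmah KO mdx replicate 2, against 10.08 to 11.78 in the other 10.

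H2-Aa probe sets disagreed on the heart array Cmah KO replicate 3. There 1435290_x_at and 1438858_x_at had their highest heart values, 11.16 and 10.47, while 1452431_s_at read 8.03 against 8.87 to 9.42 in WT hearts. Other members disagreed there too. H2-DMa had its highest heart value at 1459872_x_at, 5.58, but read 6.89 at 1422527_at. H2-Ab1 had its lowest at 1451721_a_at, 5.79, but read 9.89 at 1450648_s_at. Ciita was highest at 1447075_at (6.11) and lowest at 1421211_a_at (3.26). The pooled heart differences of H2-DMa and H2-Ab1 above are for the brightest probe set alone. Comparisons of H2-Aa that include this array are given for all 3 probe sets tested. The pooled difference of H2-Aa in heart was -0.37 ± 0.28 at 1435290_x_at, -0.49 ± 0.35 at 1438858_x_at and -0.91 ± 0.60 at 1452431_s_at. In mdx against WT hearts, where neither deviating array enters the groups, 12 of 13 probe sets were lower with a median of -0.45 (0.02 over all). Of these 0 were called (0% of all, none at an unadjusted p below 0.05), and 3 had groups that did not overlap, against 3.81% of all lower. The spread behind these tests was estimated from all 12 hearts. Both deviating arrays therefore enter the SE and the p-values, though not the differences.

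**Figure D4:**
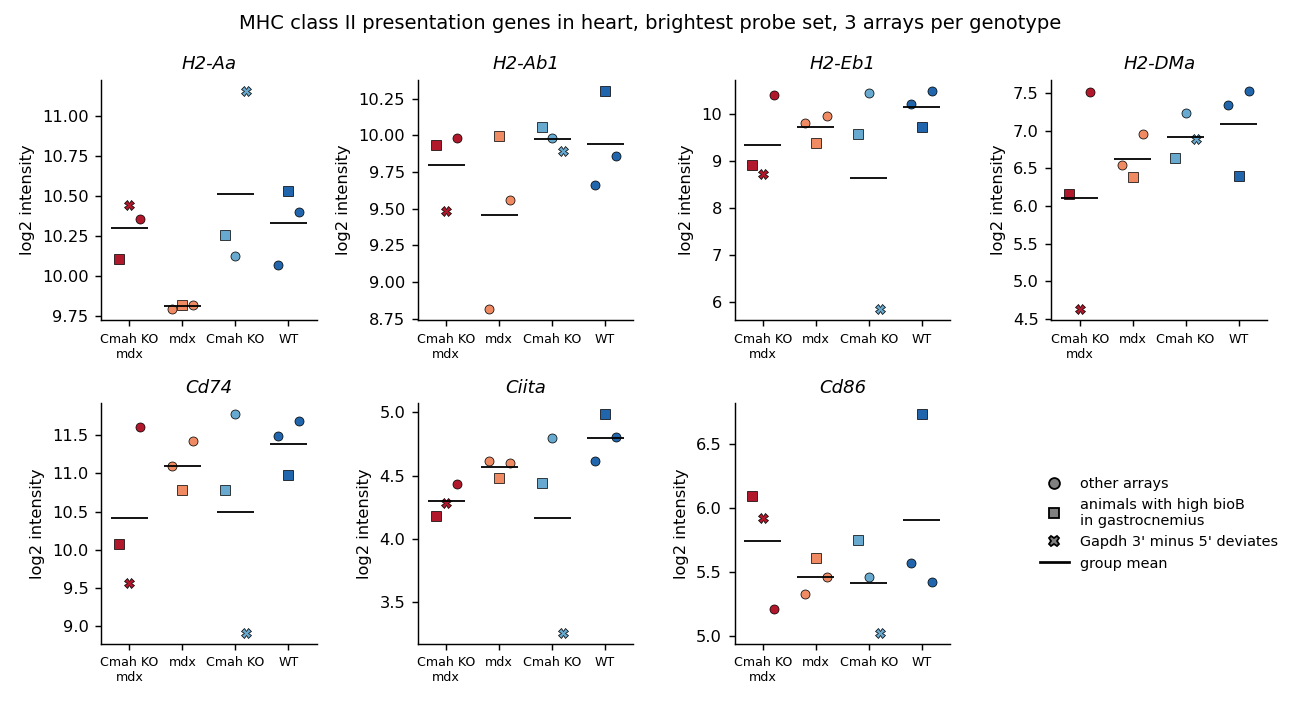
Log2 intensity of the 7 class II presentation genes in heart at the brightest probe set, for Cmah KO mdx, mdx, Cmah KO and WT (1 point per array, 3 per genotype; lines are group means; squares are the animals with high bioB in gastrocnemius and crosses the arrays that deviate in Gapdh; each panel has its own axis). The H2-Eb1 and Cd74 panels show the low cross of Cmah KO at 5.85 and 8.91, and the H2-Aa panel shows the same array highest at 11.16.

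The remaining heart comparisons called 0 of 13 members, as they called 0% of all probe sets. In Cmah KO mdx against Cmah KO the differences of the members ran from -1.11 to 0.72 with a median of -0.15 (0.20 over all), in Cmah KO mdx against mdx from -1.23 to 0.49 with a median of -0.37 (-0.14 over all) and in Cmah KO against WT from -1.51 to 0.52 with a median of -0.64 (-0.37 over all). Averaged over both backgrounds, Cmah loss had a median of -0.45 (-0.27 over all), and the interaction one of 0.31 (0.19 over all). All of these contain at least 1 of the deviating arrays. No member had an unadjusted p below 0.05 in any of them. Macrophage markers in heart had a pooled median of 0.10 over 18 genes, with 12 higher and 0 called.

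Between the tissues, class II genes other than Cd86 read lower in heart than in gastrocnemius in the genotypes without dystrophin. With all arrays only H2-DMa and H2-Ab1 passed. Cd86 differed by -0.15 ± 0.48 in mdx and -0.01 ± 0.48 in Cmah KO mdx at its brightest probe set. At 1449858_at it differed by 0.29 and -0.54. In mdx animals 13 of 14 probe sets were lower in heart with a median of -1.14 (0.05 over all 31070 probe sets tested in either tissue), and 3 of 14 passed, against 3.32% of all called lower. The log2 difference of H2-Ab1 was -1.78 ± 0.38 (limma with animal as a random block, adjusted p = 0.0037). That of H2-DMa was -2.08 ± 0.55 (0.0205), and -1.62 ± 0.45 at its second probe set (0.0303). The hearts did not overlap the gastrocnemius at 9 of 14, against 13.1% of all lower. Leaving out any 1 of the 6 mdx arrays left 0 or 1 of these calls. H2-Ab1 lost its call without heart replicate 1 (adjusted p = 0.0526) and kept it otherwise, and H2-DMa at 1422527_at lost it in each case (adjusted p = 0.0549 to 0.0983).

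In Cmah KO mdx animals 14 of 14 were lower in heart with a median of -1.60 (-0.06 over all), and 4 of 14 passed, against 5.64% of all called lower. The difference of H2-DMa was -2.91 ± 0.55 (limma adjusted p = 0.0012), and -2.08 ± 0.45 at its second probe set (0.0043). H2-Ab1 differed by -1.58 ± 0.38 (0.0088), and by -2.31 ± 0.71 at 1425477_x_at (0.0453). Without the heart arrays that deviate in Gapdh, H2-DMa differed by -2.17 (limma adjusted p = 0.0102), H2-Ab1 by -1.39 (0.0272), and 3 of 14 passed, against 6.45% of all called lower. In turn, leaving out 1 of the 6 arrays kept the call of H2-DMa, while H2-Ab1 lost it without gastrocnemius replicate 3 (0.0782) or heart replicate 2 (0.0596). Groups did not overlap at 5 of 14, against 11.5% of all lower. Macrophage markers were lower in heart at 18 of 18 with 6 called in this genotype, and at 17 of 18 with 0 called in mdx. Their part in the tissue difference was not tested.

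With dystrophin present no member passed the test between the tissues. In Cmah KO the median was -0.42 (-0.24 over all) and in WT 0.07 (0.07 over all), with 0 of 14 called in both, against 9.51% and 6.75% of all. At an unadjusted p below 0.05 there were 0 of 14 in Cmah KO, against 27.0% of all, and 3 of 14 in WT, against 17.1% of all. The difference between the tissues in the response to dystrophin loss was itself tested. It was below 0 at 14 of 14 probe sets with a median of -1.18 (0.11 over all), and 0 of 14 passed (0.480% of all called). The smallest adjusted p was 0.144 for H2-DMa (-1.96 ± 0.55), followed by 0.152 for H2-Ab1 (-1.33 ± 0.38). At other probe sets H2-DMa differed by -0.99 ± 0.45 (0.641) and H2-Ab1 by -1.44 ± 0.71 (0.713) and -1.57 ± 0.75 (0.691). H2-Aa differed by -1.04 ± 0.34 (0.274) at 1435290_x_at, by -0.97 ± 0.37 (0.444) at 1438858_x_at and by -2.01 ± 0.83 (0.545) at 1452431_s_at. Cd86 differed by -1.19 ± 0.48 (0.517), Cd74 by -1.17 ± 0.62 (0.766), H2-Eb1 by -1.03 ± 0.76 (0.865) and Ciita by -0.31 ± 0.76 (0.966). An unadjusted p below 0.05 was found at 9 of 14, against 4.51% of all lower. Without gastrocnemius WT replicate 1, 4 of 14 passed, against 0.605% of all called lower. They were H2-Ab1 (-1.59, limma adjusted p = 0.0297), H2-DMa at 1422527_at (-2.30, 0.0411), Cd86 at 1449858_at (-2.08, 0.0432) and H2-Aa at 1435290_x_at (-1.29, 0.0466). The other probe sets of H2-Aa did not pass there (-1.05 with 0.360 and -2.50 with 0.209). Without the heart arrays that deviate in Gapdh 0 of 14 passed (0.930% of all called lower), and H2-Aa at 1435290_x_at differed by -0.94 (0.188).

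**Figure D5:**
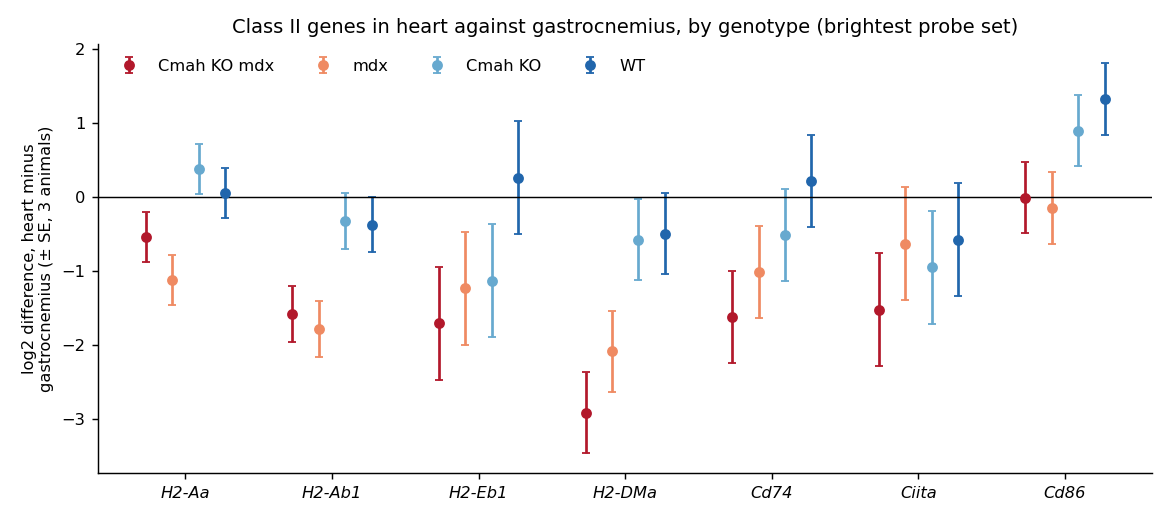
Log2 difference between heart and gastrocnemius for the 7 class II genes at the brightest probe set, in Cmah KO mdx, mdx, Cmah KO and WT animals (points are limma estimates with animal as a random block, bars are SE, 3 animals per genotype; H2-Aa is drawn at 1435290_x_at alone). H2-DMa sits at -2.91 in Cmah KO mdx and -2.08 in mdx, the 2 lowest points of the plot, while the WT points of H2-Aa, H2-Eb1, Cd74 and Cd86 lie above 0.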

How the data were processed

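Total RNA (25 ng per array) from gastrocnemius and heart of 12 mice was amplified with an Ovation kit and hybridised to mouse Affymetrix arrays, per the labels' protocols. The authors used GCOS and RMA, per the submitters' processing notes, which give no version of either. The deposited table holds linear intensity values of 45101 probe sets. Its log2 was taken without further scaling after 64 control probe sets were set aside. Symbols came from the platform annotation, and a gene is represented by the probe set with the highest mean over the 24 arrays.

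Probe sets with at least 3 of 12 arrays above the 40th percentile of a tissue were tested with limma 3.58.1 in R 4.3.3 (lmFit and eBayes on 4 group means, two-sided, Benjamini-Hochberg threshold 0.05). The 40th percentile was 4.66 in gastrocnemius and 4.78 in heart. Tissues were compared over 24 arrays with animal as a random block (consensus correlation 0.217), since the labels' animal numbers link both tissues. Errors are SE of log2 differences or SD of group values. The labels do not name separate cohorts or batches. The p-values measure the spread between the arrays of a genotype. In fits without the covariate that spread includes the split by bioB, whose source is not in the labels. The fits within a tissue were run on simulated data with independent noise in each array, which leaves out the shared split by bioB. The fit over both tissues was not simulated.

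The members, the gene lists and the rule for named genes (all members; up to 4 genes of each other list with the smallest p in the pooled gastrocnemius comparison; Dmd, Cmah and Nnt) were chosen with earlier results of these data known. Alternatives covered the filter, scaling, offset, variance model, array weights, the replicate block, other probe sets and leaving out arrays.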

Additional observations from a re-analysis of the deposited data

How the results depend on the processing

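The members' call counts within gastrocnemius and within heart were 0 under every filter, scaling, offset, variance model and array weighting tried, and also with the replicate block (0). Same-numbered samples did not deviate together as a whole (correlations of -0.577 to 0.615 in gastrocnemius and -0.418 to 0.645 in heart), so the numbers do not pair the samples. High bioB arrays did, and in gastrocnemius they include replicate 1 of Cmah KO, mdx and Cmah KO mdx. Their pairs there correlated at 0.564 to 0.617, against -0.644 to -0.147 between a high bioB array and another. Left-out arrays moved the counts. The pooled dystrophin comparison in gastrocnemius gave 0 to 4 when 1 array was left out. It gave 11 without WT replicate 1 with the bioB split as covariate, 1 without WT replicate 1 and Cmah KO replicate 3, and 12 without both and with the covariate. Those omissions and the covariate were chosen after seeing the data. Leaving out 1 array gave 0 to 1 calls between the tissues in mdx, where dropping the animal block gave 1. In Cmah KO mdx the range was 2 to 7 (7 without heart replicate 3, 2 without gastrocnemius replicate 3 or heart replicate 2). It was 0 to 2 in WT, 0 to 1 in Cmah KO and 0 to 4 for the tissue difference of dystrophin loss. Matching shares over all probe sets are not given for the ranges within a genotype. With all arrays 6.75% of all were called between the tissues in WT and 9.51% in Cmah KO. The ranges within a genotype therefore do not show whether the members moved apart from the other probe sets.

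Signs changed only for values near 0 or with wide errors. In mdx against WT gastrocnemius, Ciita ran from -1.29 to 1.07 over left-out arrays, and was 0.76 without WT replicate 1 with the covariate, 1.07 without that array and Cmah KO replicate 3, and 0.79 with the covariate added. Its pooled gastrocnemius difference ran from -0.29 to 0.89, was -0.041 without the high bioB animals and -0.10 at 1447075_at. In heart the pooled ranges over left-out arrays were -0.55 to 0.60 for H2-Eb1, -0.58 to 0.14 for Cd74, -0.18 to 0.15 for Cd86 and -0.28 to 0.11 for Ciita. H2-Eb1 there was -0.53 with array weights and -0.39 without the Gapdh-deviating arrays, with or without the covariate, and H2-DMa was 0.018 at 1459872_x_at. Ciita in heart was 0.062 after quantile normalization and 0.12 without the high bioB animals, and Cd86 there was 0.15 and 0.11 under these settings and 0.052 with array weights. Cd86 between the tissues ran from -0.32 to 0.013 in mdx (0.29 at 1449858_at) and from -0.34 to 0.41 in Cmah KO mdx (0.14 after quantile normalization, 0.042 after median centring). The tissue difference of Ciita ran from -0.94 to 0.25. The cause was not tested. Probe sets not well above the 40th percentile, Ciita and Cd86 above all, limit what can be read.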

Other observations

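Outside the members, the genes whose brightest probe set was most like the mean of H2-Aa, H2-Ab1, H2-Eb1 and Cd74 over the 12 gastrocnemius arrays were Lyz1 (Pearson r = 0.959), Plcg2 (0.957), Nfkbie (0.947), Syk (0.943) and Inpp5d (0.943), of 13225 genes. Lyz1 encodes a lysozyme, Plcg2, Syk and Inpp5d encode signalling proteins of leukocytes, and Nfkbie encodes an inhibitor of NF-κB. Whether the Lyz1 probe set also reads related lysozyme genes was not tested. Over the 12 heart arrays the genes were Smagp (0.936), Abi3 (0.935), Ppp3cc (0.934), Samd11 (0.932) and Rai14 (0.930), of 13121. The arrays share genotype groups and array quality, so these values describe likeness alone and carry no test.

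Among the members' own probe sets in gastrocnemius, H2-DMa followed that mean with r = 0.946, Cd86 with 0.829 and Ciita with 0.756. In heart the same probe sets gave 0.545, 0.140 and 0.862, but other probe sets of these genes disagreed. H2-DMa at 1459872_x_at gave -0.338 in heart, and Cd86 at 1449858_at gave 0.465. Ciita gave -0.576 at 1421210_at and -0.614 at 1447075_at, both below the filter there. H2-Aa at 1435290_x_at, itself part of the mean, gave 0.889 in gastrocnemius and -0.43 in heart. B cell markers in heart averaged 4.77 to 6.82 in Cmah KO mdx and 5.58 to 6.23 in Cmah KO, against 4.44 to 5.19 in mdx and 4.52 to 4.71 in WT.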
